A study of Mus musculus with 21 samples.

Results

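The genes described here are 41 mouse genes of DNA replication and mitosis, chosen by name from the pathway: G1 cyclins and their phosphatase and transcription factor, the replicative helicase and its loader, enzymes that supply nucleotides, kinases and phosphatases of mitotic entry, spindle and kinetochore proteins, and the machinery of anaphase. The list was drawn up with earlier results of these data known. All 41 genes were found among the 37310 genes of the annotation. All 41 had enough signal to be tested over gene bodies and in every comparison of gene TPM. The study asked where the RNA-binding protein RBM10 contacts RNA and what happens to RNA when Rbm10 is lost. Contacts were mapped by iCLIP, which fixes proteins to the RNA they touch with ultraviolet light and reports the single nucleotide at which each contact was made. RNA levels were measured by sequencing polyadenylated RNA.

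For iCLIP, 4 libraries made with an anti-RBM10 antibody, which binds either isoform of the protein, were set against 4 libraries made with rabbit IgG, 1 control for each replicate. Both came from md MEPA cells, a mandibular line derived from pharyngeal arches of 11.5 dpc mouse embryos (CD1 females crossed with male Immortomouse) and kept at 33 °C with 100 U/ml interferon. Crosslinking used a single dose of 254 nm light, 400 mJ/cm2. The 4 RBM10 libraries shared a sequencing lane and the controls were on another lane, so antibody and lane cannot be told apart. RNA-seq set 4 Rbm10 knockout (KO) md MEPA clones made with CRISPR/Cas9 against 3 wild-type (WT) md MEPA samples. KO1 and KO2 carry a deletion in exon 3, KO3 and KO4 a deletion in exon 9, and each is a separate clonal line. It also set 3 samples of the gene trap ES cell line CSI176, which is male and so hemizygous for the X-linked Rbm10, against 3 samples of its parental line E14Tg2a.4, all kept with LIF. The gene trap line is 1 line, and the labels do not say whether the ES samples or the WT md samples were grown separately, so p-values involving them cover a spread that may be technical.

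The cell cycle is driven by cyclin-dependent kinases whose cyclin partners are made and destroyed in turn. Before S phase the MCM helicase is loaded on DNA, and in mitosis the kinases CDK1, PLK1 and the Aurora kinases build the spindle until the checkpoint is satisfied, CDC20 activates the anaphase-promoting complex and separase cuts cohesin. Many of these genes are transcribed in waves by E2F and FOXM1, so their RNA levels in a culture can follow how many cells are cycling. How many md or ES cells were cycling is not given in the sources used here. Pre-mRNA splicing needs a branch point and a pyrimidine tract a short way upstream of each 3′ splice site, and RBM10 is known as a regulator of exon inclusion.

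The intron ends that carried the crosslinks of the most enriched members are printed because the pattern described further on can be read from them. Each is the last 100 nt of an intron before an annotated acceptor, or the whole intron where it is shorter, from the mm9 genome, 5′ to 3′ on the strand of the gene. Capitals mark bases crosslinked in at least 3 of the 4 RBM10 libraries. For each of the members with the highest RBM10 over IgG fold change, the intron shown is the one whose last 100 nt hold the gene's most crosslinked position before a 3′ splice site.
Tacc3 intron end, chr5:34009592-34009691, plus strand: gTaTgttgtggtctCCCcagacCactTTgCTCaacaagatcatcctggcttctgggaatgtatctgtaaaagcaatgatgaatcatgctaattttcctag
Espl1 intron end, chr15:102127091-102127190, plus strand: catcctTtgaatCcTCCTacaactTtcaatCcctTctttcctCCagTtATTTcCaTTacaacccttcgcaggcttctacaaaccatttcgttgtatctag
Cdc20 whole intron of 98 nt, chr4:118109448-118109545, minus strand: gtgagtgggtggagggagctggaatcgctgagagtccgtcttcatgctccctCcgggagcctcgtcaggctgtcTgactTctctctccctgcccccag
Ccne1 intron end, chr7:38888214-38888313, minus strand: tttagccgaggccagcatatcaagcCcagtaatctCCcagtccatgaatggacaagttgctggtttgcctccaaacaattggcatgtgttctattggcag
Aurkb intron end, chr11:68863704-68863803, plus strand: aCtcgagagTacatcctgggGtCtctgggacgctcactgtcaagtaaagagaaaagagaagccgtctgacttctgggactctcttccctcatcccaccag
Ccnb1 intron end, chr13:101549741-101549840, minus strand: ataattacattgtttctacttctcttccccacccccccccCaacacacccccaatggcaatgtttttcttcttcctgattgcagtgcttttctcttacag
The Tacc3 stretch ends at the upstream of 2 acceptors 21 nt apart, which few transcripts use, and its most crosslinked base lies 106 nt before the downstream acceptor in common use. In the Tacc3 stretch the RBM10 libraries held 458 crosslinks and the IgG libraries 4. The Espl1 stretch held 263 against 5, Aurkb 78 against 5, Ccnb1 69 against 0, Cdc20 63 against 0 and Ccne1 43 against 0. In 5 of the 6 stretches every capital lies upstream of the last 40 bases, and Cdc20 is the exception, with 2 capital T inside them. Cdc25c also ranked among the most enriched members and is named without its sequence.

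Depth ranged from 774816 to 2847066 crosslinks in RBM10 libraries and from 103017 to 2214515 in IgG libraries. The 41 genes took 5943, 13976, 19399 and 4537 of these in RBM10 and 2970, 6791, 282 and 416 in IgG, so the IgG values of the last 2 libraries rest on few counts. A member had a median of 1111 crosslinks over all 8 libraries, against 550 for all 9284 genes tested. RNA values are TPM, the length-corrected abundance of transcripts scaled to the same total in every sample, which keep no read depth. The gene that was targeted, Rbm10, stood at 4.27, 3.63 and 4.25 TPM in ES KO samples, against 32.5, 33.5 and 32.2 TPM in ES WT samples. In md cells it stood at 7.20 and 3.49 TPM in the exon 9 clones and 23.2 and 19.7 TPM in the exon 3 clones, against 21.4, 23.2 and 23.7 TPM in WT, so gene TPM did not separate the exon 3 clones from WT. Of 7 arch mesenchyme markers 5 reached a mean of 1 TPM in md cells (Prrx1, Twist1, Vim, Col1a1 and Col3a1). Pdgfra had means of 0.532 TPM in md KO and 0.242 TPM in md WT, and Hand2 was listed at 0 in all md libraries. All 6 ES cell markers reached a mean of 1 TPM in ES cells. Epithelial, endothelial, leukocyte and skeletal muscle markers summed to at most 9.45, 0.193, 11.02 and 0 TPM in md KO clones and to at most 0.673, 0.0646, 2.26 and 0 TPM in md WT. Other lists were not near 0 in md cells. Fibroblast feeder markers summed to 380 to 1848 TPM in KO and 876 to 1056 TPM in WT. Neural markers summed to 15.5 to 41.6 TPM in KO and 32.6 to 36.4 TPM in WT, and ES cell markers to 33.7 to 53.6 and 37.9 to 43.0 TPM.

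Same-strand crosslinks between the first and last base of a gene answered whether that gene took a larger share of the crosslinks in RBM10 libraries than in IgG libraries. Because each library is scaled to its own total, lower means a smaller share, and not fewer crosslinks. Mcm7, the member called lower, had 979 RBM10 and 530 IgG crosslinks. Of the 41 members 25 were higher in RBM10, 1 was lower and 15 did not pass the test. Over all 9284 genes tested 37.4% were called, 20.4% higher and 17.0% lower (edgeR quasi-likelihood test, Benjamini-Hochberg adjusted p under 0.05). The median log2 fold change, RBM10 over IgG, was 0.90 over the members and 0.05 over all genes, and 33 members lay above 0, as did 52.1% of all genes. The 4 RBM10 libraries lay entirely above the 4 IgG libraries in 26 members and entirely below in 1, against 22.0% and 14.4% of all genes. Because the members were chosen with earlier results known, these contrasts with all genes are descriptions. Members also had more crosslinks per gene (median 1111 against 550), which makes a call easier to reach. Of the 25 members called higher, 16 were called in all 8 fits that left out 1 library, and Mcm3 and Mcm6 in only 4. Values below are CPM, the crosslinks of a gene scaled to a common library total with TMM factors. Without these factors the median of all genes moved to 0.32 and that of the members to 1.18.

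Among the G1 and S phase genes, Ccne1, the cyclin that activates CDK2 at the start of S phase, had 15.0, 25.3, 35.7 and 31.8 CPM in RBM10 libraries, against 7.80, 13.7, 10.2 and 0 in IgG libraries. Every RBM10 library was above every IgG library, although the IgG values rest on 36 crosslinks in all. The log2 fold change was 1.38 ± 0.43 (SE, edgeR adjusted p = 0.0244). Cdc25a, the phosphatase that removes inhibitory phosphates from CDK2, had 96.6, 94.6, 161 and 140 CPM in RBM10, against 52.4, 51.04, 51.2 and 52.2 in IgG. Its log2 fold change was 1.25 ± 0.23 (SE, edgeR adjusted p = 0.00208). Ccnd1, encoding cyclin D1, ranged from 60.7 to 113 CPM in RBM10 and from 20.5 to 148 in IgG, and E2f1 from 28.1 to 45.0 and from 0 to 41.2, so the groups overlapped in both and neither passed the test.

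Of the 8 licensing and replication genes 6 were higher and 1 lower. Mcm5, a subunit of the MCM helicase, had 225, 213, 290 and 286 CPM in RBM10, against 133, 120, 102 and 89.5 in IgG, with no overlap. Its log2 fold change was 1.12 ± 0.19 (SE, edgeR adjusted p = 0.00141). Mcm2 (0.97), Cdc6 (1.08), which loads the helicase, and Pcna (1.07), the sliding clamp of DNA polymerase, were also called higher, as were Mcm3 (0.65) and Mcm6 (0.56), all as log2 fold changes. Mcm4 stood at 0.25 with an edgeR adjusted p of 0.326. Mcm7 was the member called lower and is taken up with the microRNA genes inside it.

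Of the 3 genes of nucleotide supply, Tyms, which makes thymidylate, had 109, 88.3, 111 and 136 CPM in RBM10, against 52.4, 46.6, 40.9 and 59.7 in IgG. The groups were well apart, with a log2 fold change of 1.15 ± 0.21 (SE, edgeR adjusted p = 0.00195). Rrm2, the small subunit of ribonucleotide reductase, was called at 1.16, whereas the large subunit, Rrm1, stood at 0.01, with means of 111 ± 3.4 CPM in RBM10 and 111 ± 25.5 in IgG (SD, n = 4 each).

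Of the 8 genes of mitotic entry 5 were called higher: Cdc25c (1.72), Ccnb1 (1.32), Plk1 (1.29), Cdc25b (1.26) and Cdk1 (0.63). Cdc25c, a phosphatase that activates CDK1, had 103, 90.6, 123 and 123 CPM in RBM10, against 35.6, 24.5, 30.7 and 67.2 in IgG (edgeR adjusted p = 0.000989). Plk1, the Polo-like kinase, had 54.1, 51.3, 64.8 and 89.2 in RBM10, against 26.7, 25.5, 40.9 and 14.9 in IgG. Both genes had every RBM10 library above every IgG library. Ccnb1, encoding cyclin B1, had 64.9, 58.3, 78.4 and 67.2 in RBM10, against 18.9, 25.5, 10.2 and 74.6 in IgG, so 1 IgG library, the 4th, overlapped the RBM10 range. Aurka, Ccna2 and Foxm1 did not pass, and Foxm1, the transcription factor of the G2 wave, stood at -0.01.

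Among the 7 spindle genes, Tacc3, which with clathrin and the Aurora A kinase steadies spindle microtubules, had the highest log2 fold change of the 41 members. It had 282, 251, 365 and 316 CPM in RBM10, against 65.7, 56.9, 20.5 and 74.6 in IgG, from 2606 and 187 crosslinks. Its log2 fold change was 2.37 ± 0.24 (SE, edgeR adjusted p = 8.57e-05) and lay between 2.25 and 2.48 in the 8 fits that left out 1 library. Aurkb, the kinase of the chromosomal passenger complex, had 107, 85.6, 96.7 and 105 in RBM10, against 35.6, 34.8, 61.4 and 52.2 in IgG (log2 fold change 1.32 ± 0.23, SE; edgeR adjusted p = 0.00141). Its partner in that complex, Birc5 (survivin), stood at -0.02. The motors of cytokinesis Kif23 (1.23) and Kif20a (0.86) were called higher, while Kif11, the motor that drives spindle poles apart, stood at 0.49 and Tpx2 at 0.20, and neither passed.

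Of the 6 kinetochore and checkpoint genes 2 were higher. Cenpe, a kinetochore motor, had 278, 245, 337 and 318 CPM in RBM10, against 157, 154, 102 and 127 in IgG (log2 fold change 1.05 ± 0.19, SE; edgeR adjusted p = 0.00169). Bub1b was called at 0.90. Mad2l1 (0.67), Bub1 (0.50), Ttk (0.27) and Cenpf (-0.52) were not called. All 3 anaphase genes were higher. Espl1, which encodes separase, had 310, 248, 439 and 423 in RBM10, against 124, 130, 123 and 97.0 in IgG (1.55 ± 0.22, SE; edgeR adjusted p = 0.000592). Cdc20 had 58.3, 49.0, 57.5 and 67.2 in RBM10, against 17.8, 23.6, 0 and 22.4 in IgG (1.53 ± 0.31, SE; edgeR adjusted p = 0.00311). The IgG values of Cdc20 rest on 67 crosslinks. Ube2c, the ubiquitin-conjugating enzyme of the anaphase-promoting complex, was called at 1.25.

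Top2a, the topoisomerase that untangles chromosomes, carried more RBM10 crosslinks than any other member, 4896. It had 494, 529, 654 and 567 CPM in RBM10, against 286, 292, 358 and 261 in IgG, with a log2 fold change of 0.92 ± 0.18 (SE, edgeR adjusted p = 0.00233). Mki67, the source of the proliferation antigen Ki-67, went the other way at -0.57 without passing (edgeR adjusted p = 0.0597): 216, 223, 148 and 120 in RBM10, against 266, 324, 225 and 201 in IgG. The 2 groups overlapped. Of a further list of 108 genes of the same pathways 107 could be tested, and 36 were higher and 9 lower (33.6% and 8.41%, against 20.4% and 17.0% of all genes), with a median of 0.41.

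**Figure D1:**
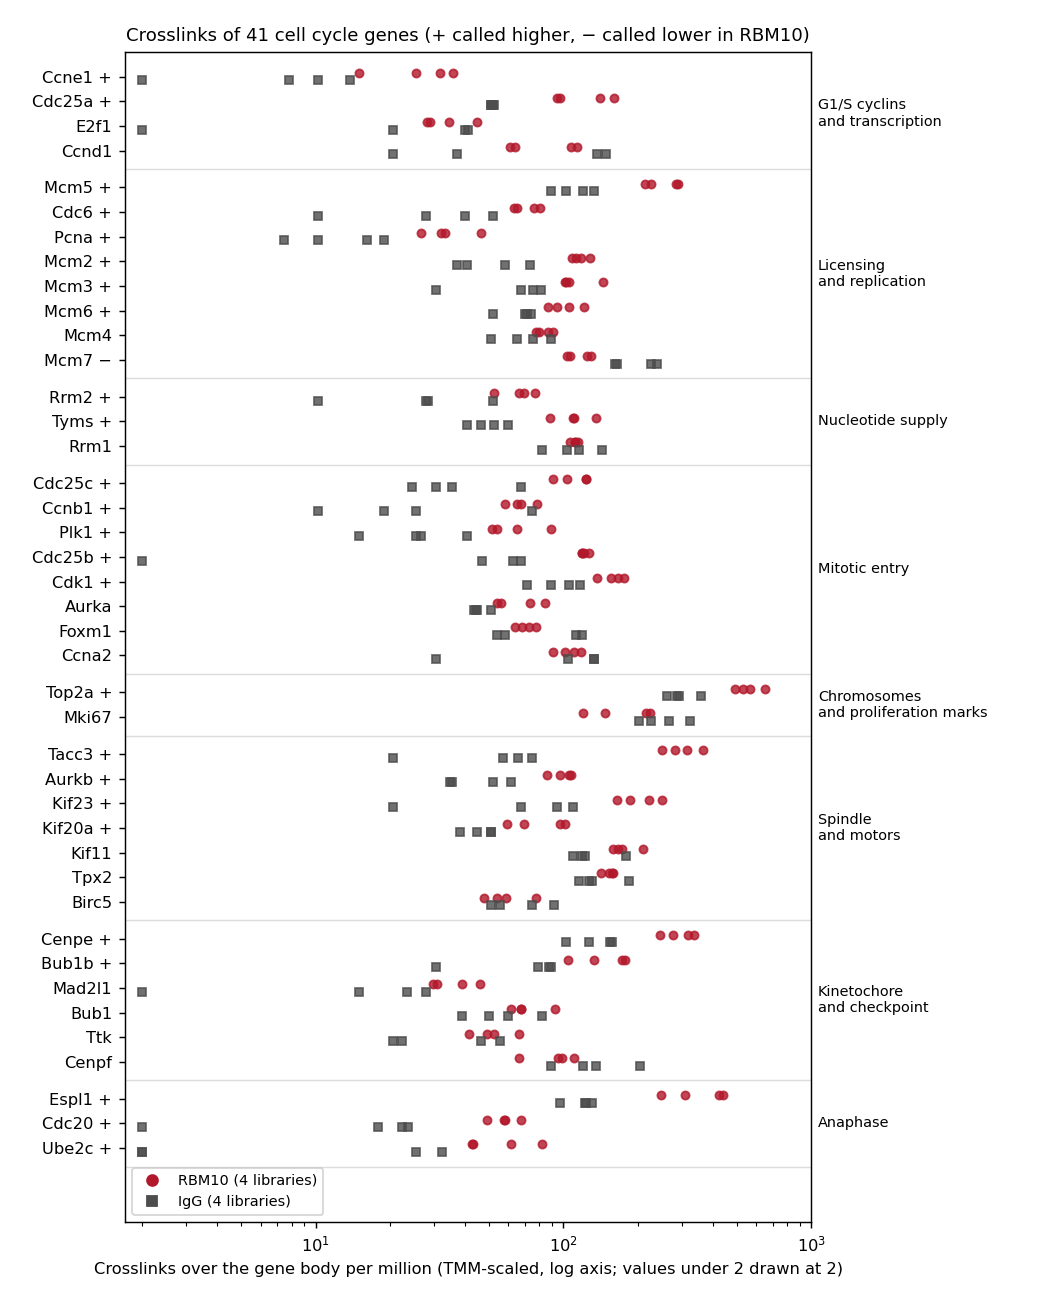
Crosslinks CPM (log axis) in each library for the 41 members, grouped by role, with RBM10 libraries as red circles and IgG libraries as grey squares, values under 2 drawn at 2, and plus or minus signs for members called higher or lower. Tacc3 shows the widest gap, 251 to 365 against 20.5 to 74.6, and Mcm7 is the member with all RBM10 libraries below all IgG libraries.

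The same crosslinks were then split into intron and exon bases. Of 40 members testable in introns, 29 were higher and 0 lower in RBM10, where 46.6% of all 7843 genes were called, 24.8% higher and 21.7% lower, and no member was lower at an unadjusted p under 0.05 or with DESeq2. The median was 1.15 over the members and 0.10 over all genes. Without TMM factors these became 1.75 and 0.69, so intron values are relative to a general shift of introns. Of the 29, 23 were also called over gene bodies and 6 in introns alone, and 2 members were called over bodies alone. In exons, of 38 members 6 were higher and 1 lower, against 20.6% of 5269 genes called, 16.4% higher and 4.25% lower, and the median was -0.01 over the members and -0.03 over all genes. Without TMM factors these became -0.49 and -0.52, and 2 members were higher and 1 lower in exons.

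In introns Cdc20 had 44.9, 34.5, 42.2 and 47.7 CPM in RBM10, against 7.72, 5.71, 0 and 0 in IgG. It had the highest intron value, 2.84 ± 0.40 (SE, edgeR adjusted p = 5.11e-05). Tacc3 introns stood at 2.75 ± 0.26 (SE, edgeR adjusted p = 2.19e-06), with 247, 225, 297 and 252 CPM in RBM10, against 39.9, 30.3, 21.5 and 76.9 in IgG. Kif20a, a mitotic kinesin, was next at 2.53, with 38.6, 44.3, 68.8 and 78.5 in RBM10, against 12.9, 9.14, 10.8 and 0 in IgG. All 3 had no overlap between the groups. RBM10 lay entirely above IgG in the introns of 28 members and entirely below in 1, Mcm7, against 24.4% and 14.0% of all genes. Rrm2 (2.16), Espl1 (1.97), Plk1 (1.97), Cdc25b (1.83), Mcm2 (1.79), Cdc25c (1.78), Mcm4 (1.71), Mcm3 (1.68), Ccna2 (1.66), Mcm5 (1.62), Cenpe (1.497) and Cdc25a (1.43) followed, all called. Mcm7 (-0.40) and Cenpf (-0.04) were the 2 members below 0, where 46.5% of all genes lay. The intron bases of Mcm7 include position 138607036, in the hairpin of a microRNA gene taken up further on, with 53 RBM10 and 84 IgG crosslinks.

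In exons Aurkb had 73.3, 56.3, 94.4 and 107 CPM in RBM10, against 22.1, 20.6, 31.7 and 11.4 in IgG, a log2 fold change of 1.96 ± 0.37 (SE, edgeR adjusted p = 0.000476). The groups were apart. Pcna stood at 1.96, Mad2l1, the checkpoint protein that holds back CDC20, at 1.74, and Top2a at 1.099, each with no overlap. In exons RBM10 lay entirely above IgG in 4 of the 38 members, against 18.9% of all genes, so this was no more common in the members. Ccnb1 (2.16) and Tyms (1.29) were called too, but their groups overlapped. Leaving out the 2nd IgG library lowered the count of members called higher in exons to 3. Mcm4 was the exception in the other direction: its exons had 16.7, 27.3, 11.7 and 7.52 CPM in RBM10, against 41.7, 35.7, 39.6 and 62.6 in IgG, a log2 fold change of -1.33 ± 0.40 (SE, edgeR adjusted p = 0.0207), and the groups did not overlap, as in this direction in 8.24% of all genes, while its introns were higher at 1.71. The exon call of Mcm4 was lost in 4 of the 8 fits that left out 1 library.

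Relative to their share of bases, RBM10 crosslinks were dense near splice sites. The last 100 nt of introns made up 6.72% of the members' bases and held 27.6 ± 4.6% of their RBM10 crosslinks and 5.77 ± 1.6% of their IgG crosslinks (SD, n = 4 each). The first 100 nt of introns, less bases already counted in the last 100 nt, were 5.70% of bases. They held 11.8 ± 1.5% and 3.48 ± 0.79% (SD, n = 4 each). In short introns, bases within 100 nt of both ends thus count only towards the 3′ end. Coding bases held 10.8 ± 5.4% of RBM10 and 32.6 ± 4.6% of IgG crosslinks, and other exonic bases 13.3 ± 1.4% and 23.6 ± 5.1%. In these 4 classes the 2 groups did not overlap, and each gave a p of 0.0286 in a 2-sided exact permutation test, the smallest that 4 against 4 libraries allow (0.0333 after adjustment over the 7 shares tested). The rest of the introns held 36.5 ± 0.90% and 34.5 ± 3.7% (exact permutation p = 0.343). Shares of libraries cover the whole set of members, so genes with many crosslinks weigh more. In the 9243 other genes tested the last 100 nt of introns were 1.95% of bases and held 13.1 to 23.6% of RBM10 crosslinks, against 1.698 to 2.72% of IgG crosslinks.

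Members differed in this share. In single RBM10 libraries the last 100 nt of introns held 46.6 to 55.6% of the crosslinks of Tacc3, 41.8 to 61.5% of Kif20a, 38.6 to 54.5% of Cdc25c, 35.4 to 44.5% of Cdc25b and 34.0 to 48.0% of Cdc20. These ranges overlap, so the 5 genes are given in no order. The median over the 41 members, pooled over libraries, was 25.1%. For Tacc3 the share counts bases before either annotated acceptor of an intron. At the low end of the pooled shares were Birc5 (10.1%), Mad2l1 (5.05%) and Pcna (1.504%), whose RBM10 crosslinks lay mainly in exons. The median for IgG was 4.67% and the highest 13.6%, and the RBM10 share was above the IgG share in 40 of 41 genes.

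Resolved in steps of 10 nt, the RBM10 crosslinks formed a band with a sharp inner edge. Relative to an even spread over the gene bodies, their density was 8.76 ± 1.6 at 61 to 70 nt before the 3′ splice site, 8.02 ± 1.6 at 51 to 60 nt and 7.35 ± 1.5 at 81 to 90 nt. It was 2.43 ± 0.47 at 41 to 50 nt and only 0.59 ± 0.021 at 31 to 40 nt, with 0.78 ± 0.18 in the last 10 nt (SD, n = 4 libraries). Farther out it declined slowly, to 4.07 just beyond 100 nt and 1.43 at 191 to 200 nt. Distances run to the nearest annotated acceptor. The step of 81 to 90 nt therefore holds 171 and 86 RBM10 crosslinks from 2 Tacc3 positions, 85 and 84 nt before a rarely used acceptor. These 2 positions lie 106 and 105 nt before the acceptor in common use. The IgG mean lay between 0.12 and 1.36 over the same 200 nt. The median distance was 68 nt (quartiles 57 and 83) for the 12166 RBM10 crosslinks in the last 100 nt and 50 nt (quartiles 13 and 78) for the 465 IgG crosslinks. In the 40 nt next to the exon, where the pyrimidine tract and usually the branch point lie, the RBM10 density was 0.55 to 0.85.

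**Figure D2:**
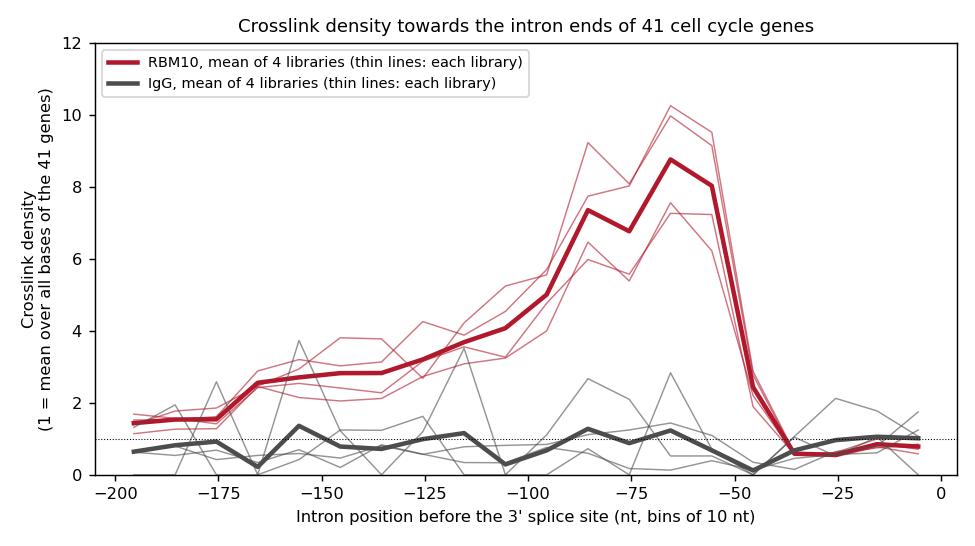
Crosslink density in steps of 10 nt over the last 200 nt of the members' introns, plotted by distance from the 3′ splice site, where 1 is an even spread over gene bodies. Thick lines are means and thin lines single libraries, 4 for RBM10 (red) and 4 for IgG (grey). RBM10 is below 1 in the last 40 nt, reaches 8.76 at 61 to 70 nt and falls to 1.43 at 191 to 200 nt, while the IgG mean stays at or below 1.36.

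Crosslinked bases differed as well. Of the RBM10 crosslinks in the members 42.6 ± 4.5% were at C and 35.7 ± 3.6% at T, against 17.2 ± 1.3% and 51.9 ± 2.1% of the IgG crosslinks (SD, n = 4 each; exact permutation p = 0.0286 for either base, 0.0333 adjusted). In the 9243 other genes C took 32.1 to 45.4% of RBM10 and 14.2 to 16.1% of IgG crosslinks. Of 25206 member positions with any RBM10 crosslink, 245 in 36 genes were crosslinked in all 4 RBM10 libraries. Of these 175 were C, 55 T, 11 G and 4 A, and 125 lay within 100 nt before a 3′ splice site. Top2a held 55 and Tacc3 26 of them, and 27 also had an IgG crosslink. Only 4 positions were crosslinked in all 4 IgG libraries, and all 4 were in Mcm7.

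In Tacc3 the crosslinks gathered around a 53 nt exon, the 6th of 15 in the annotated transcript (chr5:34009342-34009394). The exon itself held 2 RBM10 crosslinks and 1 IgG crosslink. The intron after it, 318 nt long up to the acceptor in common use, held 1006 and 12, which is 38.6% of the gene's RBM10 crosslinks and 6.42% of its IgG crosslinks in 1.52% of its length. The 1837 nt intron before it held 445 and 16. All 4 RBM10 libraries placed crosslinks on the same bases: position 34009607, the middle base of the run of 3 capital C in the printed stretch, had 17, 58, 68 and 28, against 1, 0, 0 and 0 in the IgG libraries, and position 34009454 had 10, 14, 113 and 9, against 3, 0, 0 and 0. A 3rd cluster, at 34009274 and 34009275 in the intron before the exon, had 53 and 49 RBM10 crosslinks and 0 from IgG.

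The intron after the exon has 2 annotated acceptors 21 nt apart, and position 34009607 lies 85 nt before the upstream one and 106 nt before the downstream one. Transcripts using the upstream acceptor took 1.35, 1.30, 1.71 and 2.15% of the TPM of both kinds in md KO clones, against 1.64, 1.23 and 1.32% in md WT. In ES cells they took 1.35, 2.27 and 1.65% in KO samples, against 2.58, 1.94 and 2.93% in WT. The groups overlapped in both cell types, and 1 further annotated transcript was not listed in the RNA tables. No transcript that skips the exon was followed here, so its inclusion was not analysed.

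**Figure D3:**
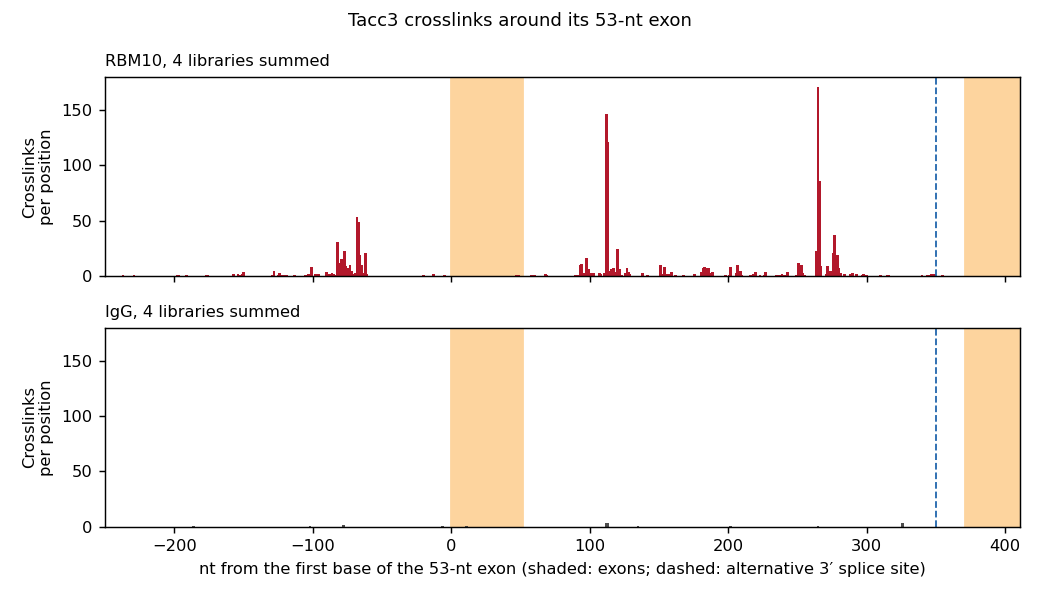
RBM10 crosslinks (upper panel) and IgG crosslinks (lower panel) summed over 4 libraries each around the 53 nt exon of Tacc3, plotted by distance in nt from its first base, with exons shaded and the upstream acceptor dashed. The tallest bars stand in the 318 nt intron after the exon, which holds 1006 RBM10 and 12 IgG crosslinks, and the exon itself holds 2 and 1.

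Mcm7, a helicase subunit, is also the host of the microRNA genes Mir106b, Mir93 and Mir25. MicroRNAs are short RNAs that pair with target transcripts through their seed, bases 2 to 8. The arms at which the IgG crosslinks gathered are printed from RefSeq (GRCm38.p6; the hairpins are identical in mm9), with the seed in capitals.
mmu-miR-106b-5p: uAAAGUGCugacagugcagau
mmu-miR-93-5p: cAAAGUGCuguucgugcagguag
mmu-miR-25-3p: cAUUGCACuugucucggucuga
The miR-106b-5p and miR-93-5p seeds are the same, and that of miR-25-3p differs. The base with the most IgG crosslinks in each hairpin lay 1 base before the first base of the arm printed, and so outside that arm. Position 138607036 on chromosome 5 had 53 RBM10 and 84 IgG crosslinks, 138606825 had 30 and 43, and 138606582 had 21 and 81. Whether these counts came from the Mcm7 transcript or from the mature microRNAs was not tested.

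Over its whole body Mcm7 had 129, 124, 106 and 104 CPM in RBM10, against 165, 161, 225 and 239 in IgG. Every RBM10 library was below every IgG library, and the log2 fold change was -0.69 ± 0.19 (SE, edgeR adjusted p = 0.0131), a call lost without the 4th RBM10 library (adjusted p = 0.0581). The 3 hairpins are 254 of its 7840 bases, 3.24%. They held 27.1, 40.2, 3.55 and 11.8% of the gene's crosslinks in the RBM10 libraries, against 81.1, 77.1, 68.2 and 68.8% in the IgG libraries. Outside them Mcm7 had 764 RBM10 and 120 IgG crosslinks. With crosslinks in small RNA genes left out of every gene, an alternative chosen after these values were seen, the log2 fold change was 1.08 ± 0.26 (SE, edgeR adjusted p = 0.00432). With each crosslinked position counted once per library it was 0.46 ± 0.26 (SE, edgeR adjusted p = 0.158). Mki67 was then called lower in either count, at -0.62 and -0.59 (edgeR adjusted p = 0.0335 and 0.0266).

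In windows of 5000 nt, 148 of the members' 206 windows could be tested. Of these 65 in 31 genes were higher in RBM10 and 6 in 5 genes lower, where 44.6% of all 22772 windows were called, 28.8% higher and 15.8% lower. After a window of Tacc3, the lowest p belonged to chr2:131015001-131020000 in Cdc25b, with means of 98.4 ± 9.5 CPM in RBM10 and 14.9 ± 12.4 in IgG (SD, n = 4 each; log2 fold change 2.32, edgeR adjusted p = 2.34e-06). Next was chr3:134925001-134930000 in Cenpe, with 46.0 ± 5.9 and 6.34 ± 4.7 (2.49, edgeR adjusted p = 7.09e-06). The lower windows lay in Mki67, Cenpf (2 windows), Ccnd1, Tpx2 and Mcm7, and in all but that of Mcm7 the groups overlapped. Without the 2nd IgG library 21 windows were called higher, and without the 1st 39.

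At the level of gene TPM 0 of the 41 members passed the test in md KO clones, where 2 of 12090 genes did (0.0165%, both lower; limma on log2(TPM + 1), adjusted p under 0.05). At an unadjusted p under 0.05 there were 2 members, against 6.86% of all genes. The members lay slightly below 0: 30 of 41 had a negative log2 fold change, as had 47.9% of all genes, and the median was -0.11 against 0.01. KO clones lay entirely below WT in 5 members and entirely above in 0, against 4.38% and 6.33% of all genes. In bulk samples, fewer cells of a type and less RNA per cell cannot be told apart. The clones varied far more among themselves (mean correlation with the other clones 0.939 to 0.951) than the WT samples did (0.993).

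The 5 were genes of mitosis and nucleotide supply. Plk1 had 54.2, 61.7, 53.8 and 52.3 TPM in KO clones, against 76.0, 76.7 and 73.4 TPM in WT, with a log2 difference of -0.44 ± 0.10 (SE, limma adjusted p = 0.602). Aurka, the kinase of centrosomes and spindle poles, had 44.3, 44.1, 40.5 and 47.6 TPM in KO, against 58.7, 57.2 and 57.5 TPM in WT (-0.38 ± 0.10, SE; limma adjusted p = 0.608). In both genes the gap between the groups was wider than the spread within either. Bub1b stood at -0.23, Rrm2 at -0.20 and Mad2l1 at -0.14, also without overlap and without passing. The 4 genes listed under stalled cycling (Cdkn1a, Mdm2, Ccng1 and Cdkn2a) were looked at beside them. Their summed level was 392 to 639 TPM in KO clones and 363 to 411 TPM in WT, all 4 above 1 TPM in both, and Cdkn1a, a CDK inhibitor, had 13.6, 26.1, 18.02 and 18.7 TPM in KO, against 8.37, 9.64 and 9.46 TPM in WT (0.95 ± 0.20, SE; limma adjusted p = 0.602). Mdm2 (0.49), Cdkn2a (0.41) and Ccng1 (0.05) did not pass either. Cdkn2a made up most of the sum, at 284 to 561 TPM in KO and 283 to 328 TPM in WT. With that level in WT, the name of the list is a label and no measure of stalled cells. The 7 arch mesenchyme markers summed to 2763 to 3549 TPM in KO and 3590 to 3846 TPM in WT. Most of that sum was Vim, at 2405 to 3188 TPM in KO and 3019 to 3341 TPM in WT (-0.29). Prrx1 went the other way, at 56.4 to 90.2 TPM in KO and 47.3 to 49.8 TPM in WT (0.44). Twist1 stood at 0.15, Col1a1 at -0.26 and Col3a1 at -0.55, and none of these 5 passed. The part of the stalled cycling and mesenchyme genes in the member values was not tested.

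In ES cells 3 members were higher and 1 lower in KO samples, where 12.3% of 12860 genes were called, 7.53% higher and 4.73% lower. Ccne1 had 240, 358 and 277 TPM in KO, against 106, 99.3 and 198 TPM in WT, with a log2 difference of 1.17 ± 0.28 (SE, limma adjusted p = 0.0434). The 3rd WT sample lay between the others and the KO samples. Mad2l1 had 116, 128 and 119 TPM in KO, against 80.2, 76.3 and 100.9 TPM in WT (0.50 ± 0.12, SE; limma adjusted p = 0.0439), and Cdc20 169, 212 and 210 TPM in KO, against 145, 143 and 146 TPM in WT (0.44 ± 0.11, SE; limma adjusted p = 0.0439). Tyms had 79.7, 68.9 and 70.4 TPM in KO, against 100.8, 104 and 118 TPM in WT, and fell by 0.55 ± 0.10 on the log2 scale (SE, limma adjusted p = 0.0263). In all 4 genes the groups did not overlap. Cdc20 and Tyms overlap other genes in the annotation (Elovl1 and Gm17448), and whether the RNA-seq used strand is not given in the sources used here.

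KO samples lay entirely above WT in 10 members and entirely below in 2, against 23.8% and 14.5% of all genes. There were 10 members at an unadjusted p under 0.05, against 34.1% of all genes. Above 0 lay 22 members and below 0 19, against 53.7% and 46.3% of all genes, and the median was 0.03 over the members and 0.03 over all genes. Ccnd1 had 109, 112 and 100 TPM in KO, against 48.5, 46.4 and 92.7 TPM in WT (0.84 ± 0.25, SE; limma adjusted p = 0.0713), and Cdc25c 9.72, 8.52 and 7.25 TPM in KO, against 12.5, 12.5 and 10.9 TPM in WT (-0.46 ± 0.12, SE; limma adjusted p = 0.0562). Ube2c was the member with the highest RNA level in ES cells, with 530 ± 28 TPM in KO and 462 ± 40 TPM in WT (SD, n = 3 each), and was not called. The calls hung on single samples. Leaving out ES KO 2, KO 3, WT 1 or WT 2 left 0 members called in either direction, leaving out KO 1 gave 3 higher and 4 lower, and leaving out WT 3 gave 4 higher and 1 lower.

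The samples ES KO 1 and ES WT 3 stood apart from the others of their groups, with mean correlations of 0.979 and 0.982 against 0.983 for both other KO samples and 0.987 for both other WT samples. Without both, a choice made after seeing the values, 8 members were higher (Ccne1, Ccnd1, Mad2l1, Cdc20, Pcna, Rrm1, Aurkb and Ccna2) and 7 lower (Cdc25c, Tyms, E2f1, Mcm6, Rrm2, Cenpe and Tacc3), among 5716 genes called in all. Dropping samples that deviate shrinks the spread, so these counts add no support. Markers of other cell types differed between the ES groups too. The 3 leukocyte markers, 2 of them above a mean of 1 TPM, summed to 30.7 to 39.98 TPM in KO and 64.0 to 74.7 TPM in WT, with Ptprc listed at 0 in all 6 samples, and the 4 endothelial markers, 2 of them above 1 TPM, to 10.8 to 21.0 TPM in KO and 22.3 to 28.8 TPM in WT, with Cdh5 listed at 0. The 6 ES cell markers summed to 1305 to 1557 TPM in KO and 1594 to 1894 TPM in WT, but they did not move together. Pou5f1 had 683, 656 and 634 TPM in KO, against 553, 571 and 557 TPM in WT (0.23, not called). Nanog (-0.82), Esrrb (-1.19) and Klf4 (-0.68) were called lower, and Sox2 (-0.42) and Zfp42 (-0.55) lay below 0 without passing. Cdkn1a had 11.6, 8.10 and 7.58 TPM in KO, against 14.3, 16.4 and 16.3 TPM in WT, and fell by 0.74 on the log2 scale (limma adjusted p = 0.0352). Of the other 3 genes listed under stalled cycling, Cdkn2a went the other way, at 0.73 (limma adjusted p = 0.0196). Ccng1 (0.48) and Mdm2 (-0.17) did not pass. The 4 genes summed to 139 to 153 TPM in KO and 109 to 148 TPM in WT. Their part in the member values was not tested. The neural, fibroblast feeder, epithelial and skeletal muscle sums were 53.6 to 77.0, 2.10 to 3.26, 194 to 228 and 0.440 to 0.795 TPM in ES KO samples, against 64.6 to 70.8, 3.17 to 5.58, 170 to 191 and 0.392 to 0.416 TPM in ES WT samples.

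**Figure D4:**
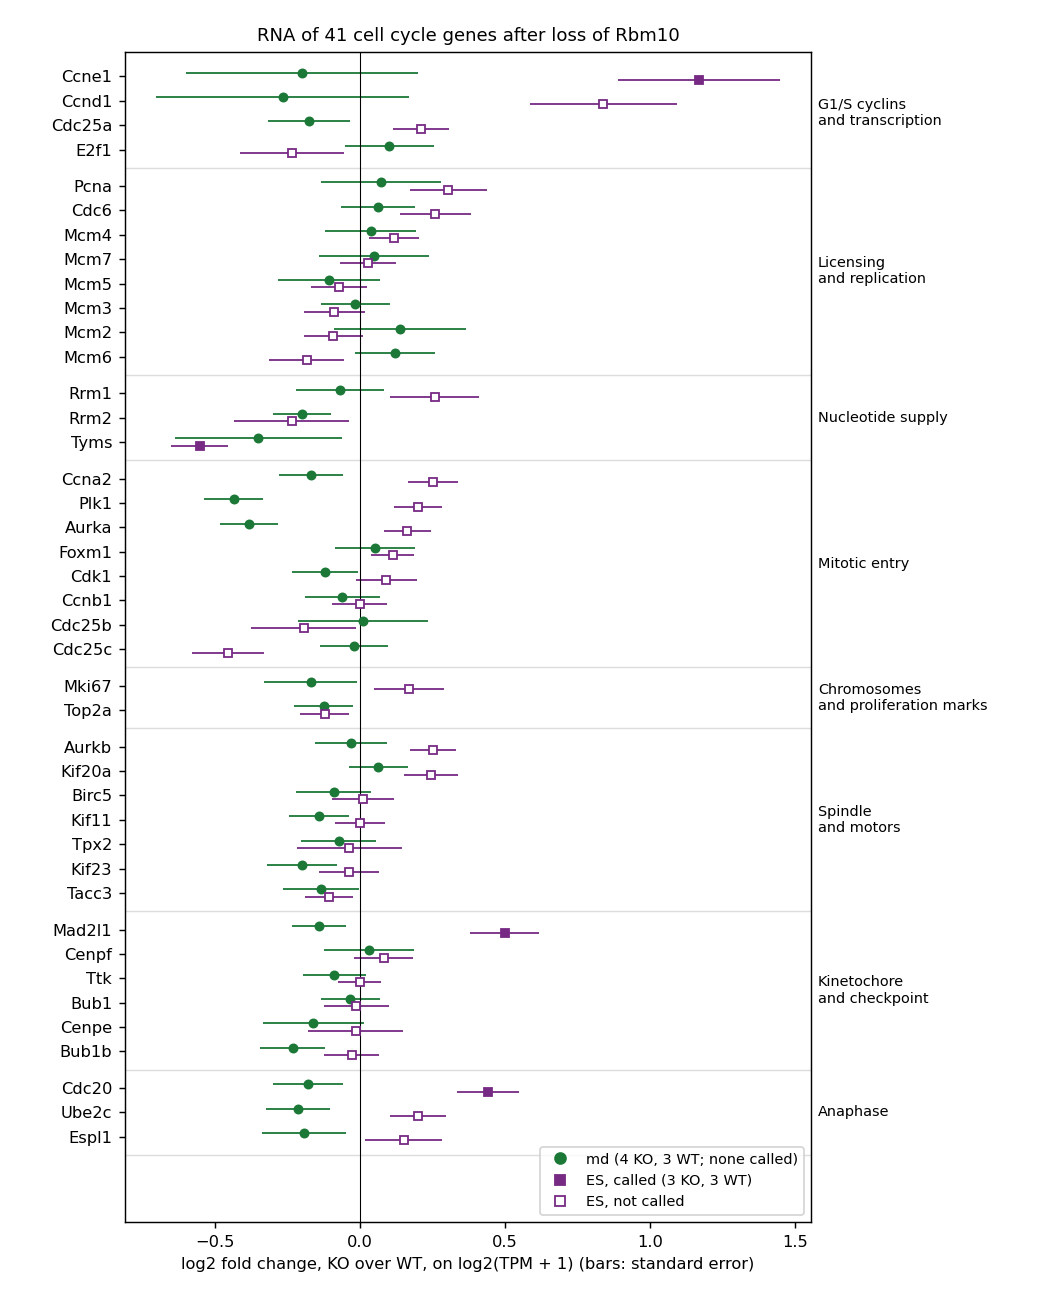
Log2 difference in TPM, KO over WT, with its standard error for each of the 41 members in md (green circles) and ES cells (purple squares, filled where called), by role. No md value was called, the lowest being Plk1 at -0.44, and the called ES values are Ccne1 at 1.17, Mad2l1 at 0.50, Cdc20 at 0.44 and Tyms at -0.55.

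Whether the effect of Rbm10 loss differed between the ES and md comparisons was tested as the ES effect minus the md effect. The ES line carries a gene trap and the md clones carry CRISPR/Cas9 deletions, so cell type and kind of mutation cannot be told apart. For 1 member, Plk1, this difference passed, where 104 of 10558 genes did (0.985%; 0.483% higher and 0.502% lower). Plk1 had 123, 115 and 108 TPM in ES KO samples, against 97.4, 99.4 and 104 TPM in ES WT samples, above WT where the md clones were below it. The difference of effects was 0.64 ± 0.12 (SE, limma adjusted p = 0.0368), with an adjusted p between 0.0141 and 0.137 when 1 sample was left out, and the call was lost in 7 of those 13 fits. Mad2l1 (0.64), Cdc20 (0.62) and Aurka (0.55) came next with limma adjusted p of 0.0590, 0.0714 and 0.0540. The difference was above 0 in 32 members and in 53.5% of all genes, with a median of 0.14 against 0.04.

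**Figure D5:**
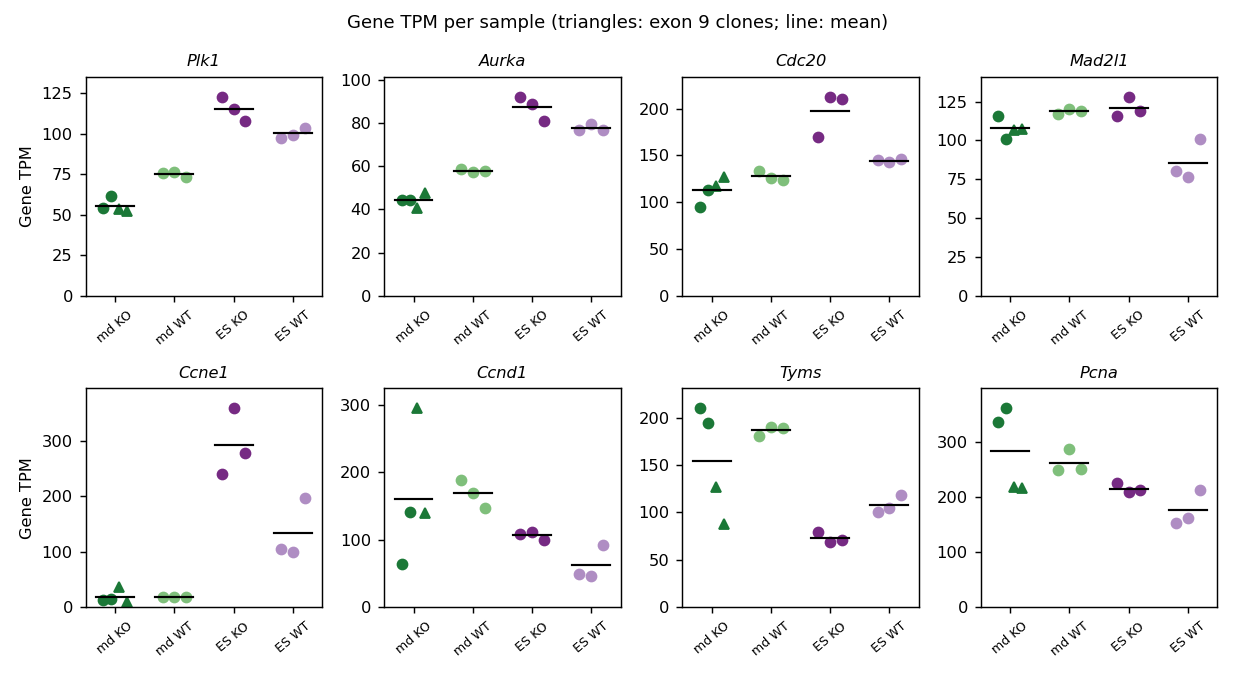
TPM in every RNA-seq sample for members named in the RNA comparisons, with KO samples left of WT samples for md (green) and ES cells (purple), triangles for exon 9 clones and short bars at the means. Plk1 is at 52.3 to 61.7 TPM in md KO and 73.4 to 76.7 TPM in md WT, and Ccne1 at 240 to 358 TPM in ES KO and 99.3 to 198 TPM in ES WT.

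Among the md clones, those with the exon 9 deletion had less RNA of 2 replication genes than those with the exon 3 deletion. Pcna had 218 and 217 TPM in the exon 9 clones, against 336 and 361 TPM in the exon 3 clones, with 250, 287 and 251 TPM in WT beside them, so WT lay between the pairs. The log2 difference was -0.68 ± 0.11 (SE, limma adjusted p = 0.0331). Tyms had 127 and 87.8 TPM in the exon 9 clones, against 210 and 194 TPM in the exon 3 clones, with 181, 190 and 189 TPM in WT (-0.93 ± 0.18, SE; limma adjusted p = 0.0446). These 2 members were called lower and 0 higher, where 3.73% of genes were called, 2.32% lower and 1.41% higher. The WT samples were part of this fit, so its SE and p-values draw partly on their narrower spread. They may therefore understate the spread between clones. With 1 WT sample left out, 51 to 59 genes were called in all, against 451 in the full fit. Mcm7 (-0.49) and Tacc3 (-0.35) did not pass (limma adjusted p = 0.170 and 0.111). Each pair is 2 clones, so a feature of 1 clone and the place of the deletion cannot be told apart, and without KO1, KO2 or any WT sample neither gene was called. Ccnd1 had 295 and 139 TPM in the exon 9 clones and 64.7 and 141 TPM in the exon 3 clones.

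Isoform shares, a transcript's percentage of its gene's TPM, gave 0 calls for the members in either cell type. Tested were 53 transcripts of 22 members in md cells and 50 of 21 members in ES cells, and over all genes 0 of 18725 transcripts in md and 8 of 18872 in ES cells were called (0% and 0.0424%, the ES calls being 0.0265% higher and 0.0159% lower). At an unadjusted p under 0.05 there were 2 of the 53 members' transcripts in md and 5 of the 50 in ES cells, against 1461 of 18725 and 2315 of 18872 over all genes. In md cells no share differed by more than 5.45 points. In ES cells the only shares to differ by over 10 points were the paired transcripts of Kif20a. ENSMUST00000166044 took 25.2, 32.2 and 15.6% of its TPM in KO, against 9.35, 12.8 and 13.8% in WT, a difference of 12.4 ± 4.4 points with no overlap (SE, limma adjusted p = 0.348). Named after their values were seen, Top2a ENSMUST00000139460 took 4.70, 4.59 and 2.91% in ES KO, against 13.6, 13.02 and 15.2% in ES WT (limma adjusted p = 0.145), and in md cells 8.95, 6.56, 7.14 and 7.998% in KO, against 10.6, 12.9 and 15.6% in WT (limma adjusted p = 0.514). KO was below WT in both cell types. Over all transcripts tested, KO lay entirely below WT in 9.59% in ES and 4.48% in md cells. It lay entirely above WT in 9.17% and 4.53%, so groups without overlap were common.

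Crosslinks and RNA differences were also set side by side. The 25 members called higher in RBM10 over gene bodies had a median log2 difference in TPM of -0.13 in md cells and -0.02 in ES cells, and the 16 others -0.08 and 0.10. Across the 41 genes Spearman's rho between the crosslink fold change and the RNA difference was -0.26 in md and -0.08 in ES cells. It was 0.63 between gene length and RBM10 CPM, which both include the length of the introns, and -0.15 between gene length and the fold change over IgG. These are descriptions across genes, which are not independent replicates. Tacc3, with the highest crosslink fold change, had 105, 109, 84.0 and 83.5 TPM in md KO clones, against 100, 107 and 105 TPM in md WT.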

How the data were processed

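iCLIP (4 RBM10 and 4 IgG libraries of md MEPA cells) and RNA-seq (4 KO and 3 WT md samples, 3 KO and 3 WT ES samples) were used. The authors deposited, per library, the count of crosslinks at each nucleotide and strand. Per the series' design text the iCLIP reads were aligned to mm9; the submitters' processing notes also name mm10, without a role. Whether barcodes were collapsed is not given in the sources used here. RNA values are the TPM per transcript that the authors deposited, whose quantifier is likewise not given. Of 100249 listed transcripts 84877 joined to the GENCODE vM1 annotation.

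Crosslinks were summed over gene bodies, introns, exons and windows of 5000 nt and tested with edgeR 4.0.16 (TMM factors, quasi-likelihood) in R 4.3.3. TPM were summed per gene and log2(TPM + 1) tested with limma 3.58.1 for genes of at least 1 TPM in 3 libraries. Isoform shares, in percent, were tested with limma, and a call also needed a difference of 10 points. All p-values were adjusted by Benjamini-Hochberg over all features, and the threshold was 0.05. Steps were tested on simulated data. Shares between libraries used exact permutation tests (scipy 1.17.1). Genes described in full were the called members, up to 12 per direction by lowest p, or up to 4 with the lowest p where fewer than 4 were called; others are given to complete a role. Alternatives were DESeq2 1.42.0, no TMM factors, other filters and pseudocounts, each position counted once, a replicate block and leaving out each library. iCLIP replicates had their own controls. Same-numbered libraries deviated from their group means with correlations of -0.022 to 0.023, which so few libraries cannot turn into a verdict on pairing. No per-sample column was left unused. Depth ran from 103017 to 2847066 crosslinks, and TPM keep no depth. The members and lists were chosen with earlier results of these data known.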

Additional observations from a re-analysis of the deposited data

Results flagged for a closer look

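Of 72 groups of 4 libraries looked at, 2 held a library far from the others, and chance gives about 1 in 20. The 4th IgG library had 45.5 CPM in Ccnb1 exons, where the other IgG libraries had 6.81, 6.996 and 0. The 4th RBM10 library had 106 CPM in Mcm3 introns, where the other RBM10 libraries had 78.8, 73.2 and 78.8. For Plk1 RNA the effect of Rbm10 loss in ES cells minus that in md cells passed, at 0.64 on the log2 scale (limma adjusted p = 0.0368). Cell type and kind of mutation cannot be told apart in this difference. The call was lost in 7 of the 13 fits that left out 1 sample, and the Plk1 effect passed in neither cell type alone (limma adjusted p = 0.139 in ES and 0.602 in md cells).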

How the results depend on the processing

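Members called higher over gene bodies numbered 17 to 26 when 1 library was left out and members called lower 0 to 3. Introns gave 21 to 30 higher, exons 3 to 7 higher and 0 to 1 lower, and windows 21 to 62 higher and 0 to 10 lower. Without single samples the ES comparison gave 0 to 4 higher and 0 to 4 lower, the ES effect minus the md effect 0 to 6 higher, and the clone contrast 0 to 1 higher and 0 to 3 lower. The md comparison and the isoform shares stayed at 0.

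Gene bodies had 0 members lower without TMM factors, 2 with the replicate block, 2 with each position counted once and 3 with pairs 1 and 2 alone. Exons had 2 higher without TMM factors and 0 lower with at least 10 crosslinks. Windows had 3 lower without TMM factors, 1 with DESeq2, 0 with at least 10 crosslinks and 1 with the replicate block. Mcm7 turned to 0.46 over its body and 0.39 in its window with each position counted once, and to 1.08 over its body without small RNA genes. In ES cells 0 members were higher with no filter, 1 with quantile normalization, 0 with the replicate block and 8 without KO 1 and WT 3, and 2, 0 and 7 were lower under the last 3 settings. The cause was not tested. Same-numbered ES samples deviated from their group means with correlations of 0.165, -0.135 and 0.039, and same-numbered md samples with -0.110 to -0.001. With so few samples per group these values cannot show whether the numbers mark pairs. Under the block 20 members were called higher over bodies and 26 in introns, and 47 of their windows. For single genes and windows 764 alternative values kept their call, 108 lost it, 9 gained it and 3 changed sign. The 2 shallow IgG libraries limit what genes with few IgG crosslinks can show.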

Other observations

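A further 108 cell cycle genes, listed with earlier results known, give a setting for the 41. Over gene bodies 12 of 31 other spindle, kinetochore and cytokinesis genes were higher in RBM10 and 1 lower (median log2 fold change 0.45), 10 of 26 other licensing and replication genes higher and 2 lower (0.61), 7 of 22 anaphase and chromosome structure genes higher and 2 lower (0.23), and 7 of 28 cyclins, CDKs and their inhibitors higher and 4 lower (0.31), where 20.4% of all genes were higher and 17.0% lower. Among those testable in introns 42 were higher and 8 lower (41.6% and 7.92%, against 24.8% and 21.7% of all genes), with a median of 0.55 against 0.10 for all genes. Of the same genes 0 of 106 changed in md KO RNA by limma (3 at an unadjusted p under 0.05, against 6.86% of all genes), and 9 were higher and 4 lower in ES KO (8.49% and 3.77%, near the 7.53% and 4.73% of all genes).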
